A study of Rattus norvegicus with 4 samples.

Results

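The sodium pump (Na,K-ATPase) genes described here are the 4 genes of its beta subunit family, Atp1b1, Atp1b2, Atp1b3 and Atp1b4, and Fxyd1, the gene of its muscle regulator phospholemman. They were chosen by gene symbol: every probe set whose platform annotation gave 1 of these 5 symbols was taken, which gave 7 probe sets of the 20832 with a single symbol and 5 genes of 14218. Atp1b1 and Atp1b2 had 2 probe sets each and the others 1 each. The choice of genes was made with results of these arrays known, so the differences below are described and not tested. Genes of the catalytic alpha subunit other than Atp1a4 were not analysed here.

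Skeletal muscle of F344/DuCrlCrlj rats was measured on 4 single-colour arrays in a model of intermittent claudication, leg pain on walking caused by a narrowed blood supply. Each group had 1 array. The groups were ischemia with electrical stimulation through the nerve (ischemia + ES), ischemia with exercise (ischemia + exercise), ischemia with neither, and sham. The muscle taken, the operation, the animals' age and sex, the number of animals per array, and how long and how strongly muscle was stimulated or exercised were not given in any source used here. The study asked which expression differences ES and exercise make in ischemic muscle. With 1 array per group there is no spread between replicates, so no order of levels below can be said to exceed it.

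Values are MAS5 signals, linear brightness summaries of a probe set. Signals under 30.1, the 50th percentile of all values on the 4 arrays, were set to that floor before ratios were taken. A gene counts as past 2-fold where its brighter probe set, floored in this way, differed 2-fold or more between a pair of arrays. In all, 10092 genes lay above the floor on at least 1 array, all 5 sodium pump genes among them, and all 5 were above it on all 4 arrays on their brighter probe set. Signals of different probe sets are not on 1 scale, so levels are compared between arrays only. In whole muscle, fewer cells of a type and less RNA per cell cannot be told apart.

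The sodium pump uses ATP to carry sodium out of the cell and potassium in. Each action potential of a muscle fibre lets sodium in and potassium out, and the pump restores the gradients, so contracting muscle depends on it to stay excitable. The alpha subunit carries the ions, the glycosylated beta subunit is needed for the pump to fold and reach the membrane, and small FXYD proteins tune its affinity for the ions. In rat muscle the Atp1b1 protein is known to prevail in slow oxidative muscle and the Atp1b2 protein in fast glycolytic muscle.

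Before the values, the upstream sequences of Atp1b4 and Atp1b2 are shown, because these genes had the highest and the lowest ratio of the 5 for ischemia + ES against ischemia. They are the 250 bases before the RefSeq gene start in the build GRCr8, 5′ to 3′ on the gene's strand, Atp1b4 at chrX:121952727-121952976 (plus strand) and Atp1b2 at chr10:54823709-54823958 (minus strand). Capitals mark matches on either strand to 6 short motifs: the E-box CANNTG, the CCAAT box CCAAT, the GC box GGGCGG, the TATA box TATAAA, the M-CAT element CATTCC and the nuclear receptor half-site AGGTCA. No match overlapped another in these sequences.
Atp1b4: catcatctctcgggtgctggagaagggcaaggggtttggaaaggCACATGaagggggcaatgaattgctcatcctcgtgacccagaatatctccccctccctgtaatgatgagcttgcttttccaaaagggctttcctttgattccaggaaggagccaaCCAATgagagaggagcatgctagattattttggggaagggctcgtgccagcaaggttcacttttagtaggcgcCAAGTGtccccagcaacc
Atp1b2: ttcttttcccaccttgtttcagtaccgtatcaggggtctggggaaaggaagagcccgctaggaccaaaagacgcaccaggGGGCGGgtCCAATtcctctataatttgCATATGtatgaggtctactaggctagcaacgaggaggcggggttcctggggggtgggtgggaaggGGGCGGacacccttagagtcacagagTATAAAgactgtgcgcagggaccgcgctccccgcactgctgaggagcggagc

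The Atp1b4 stretch held 2 E-boxes and 1 CCAAT box and none of the other motifs. The Atp1b2 stretch held 1 E-box, 1 CCAAT box, 2 GC boxes and a TATA box whose first base lay 52 bases before the gene start. Of 33465 RefSeq stretches of the same length, 65.5% held an E-box, 34.0% a CCAAT box, 30.5% a GC box and 12.9% a TATA box. M-CAT was held by 12.1% and the half-site by 14.1%. The guanine and cytosine share was 51.6% for Atp1b4 and 58.0% for Atp1b2, against a median of 51.2% over all stretches. A match is a description of these letters and not a binding site.

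**Figure D1:**
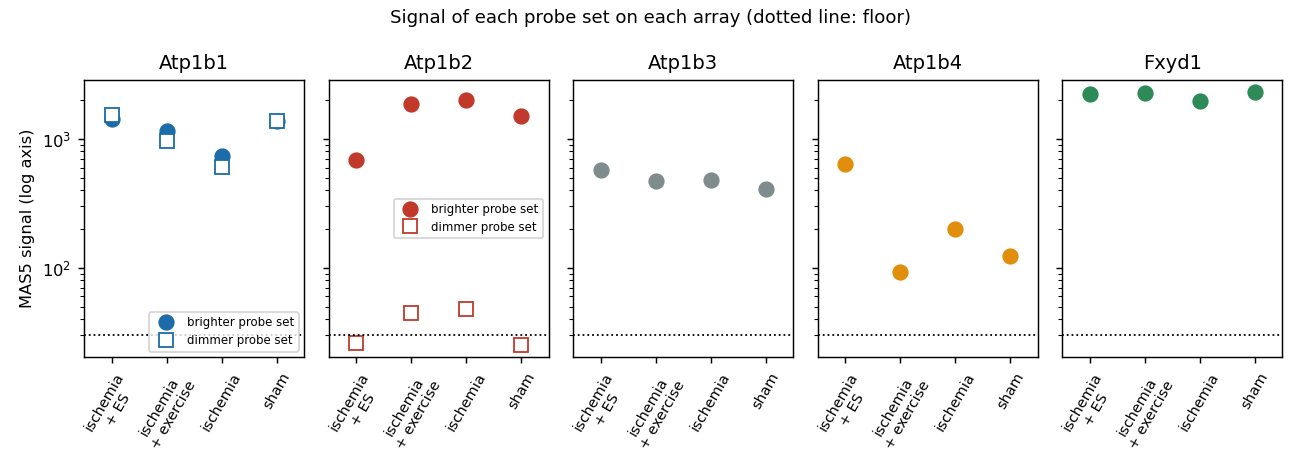
MAS5 signal of each of the 7 probe sets (vertical log axis) on each of the 4 arrays (horizontal axis), 1 panel per gene; filled circles are the brighter probe set of a gene, open squares the dimmer one, and the dotted line is the floor of 30.1. On the brighter probe sets, Atp1b4 has its own highest signal and Atp1b2 its own lowest on the ischemia + ES array. Atp1b1 has its lowest on the ischemia array, and Atp1b3 and Fxyd1 vary least.

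Atp1b4 had the widest range of the 5 genes. In placental mammals its protein is no longer a pump subunit: it sits in the inner nuclear membrane of muscle cells, is most abundant around birth, and binds the transcriptional co-regulator encoded by Snw1. Its single probe set gave a signal of 636 on the ischemia + ES array, 92.9 on ischemia + exercise, 199 on ischemia and 123 on sham. The ES array thus stood above the other three, which lay within 2.14-fold of each other, with exercise the lowest.

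Against ischemia, Atp1b4 was 3.19-fold higher with ES, a log2 ratio of 1.68, and 2.14-fold lower with exercise, a log2 ratio of -1.10. These ratios share the ischemia array. ES set directly against exercise gave a 6.84-fold higher signal, and ES against sham a 5.18-fold higher one. Ischemia against sham was 1.62-fold higher and exercise against sham 1.32-fold lower, both short of 2-fold. Of 10092 genes, Atp1b4 had the 19th highest ratio for ES against ischemia, the 6th highest for ES against exercise and the 8th highest for ES against sham. The exercise value against ischemia is the weakest of its ratios past 2-fold, since with the floor at the 70th percentile its log2 ratio was -0.97.

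Genes of developing and regenerating fibres were also brightest on the ES array. Myh8, the perinatal myosin heavy chain, had a signal of 2393 with ES, 45.0 with exercise, 86.4 in ischemia and 36.9 in sham. Myh3, the embryonic myosin heavy chain, stood at 617, 150, 180 and 170 in the same order of arrays. Myog, a transcription factor of muscle differentiation, stood at 514, 192, 159 and 228. These 3 genes were chosen after their values were seen, and their relation to Atp1b4 was not tested. The skeletal muscle fibre markers (6 of 6 measured) had a summed signal of 65816 with ES, 63374 with exercise, 60309 in ischemia and 63000 in sham. For ES against ischemia 5 of the 6 had ratios above 0 and 1, Myh4, below. Myh4, a fast myosin heavy chain, gave 10366 with ES, 13339 with exercise, 13178 in ischemia and 12841 in sham. Myh1, another fast myosin heavy chain, gave 8851, 6496, 6912 and 7257 on its brightest probe set, which is open to cross-hybridization with other genes. The dimmest Myh1 probe set was lowest on the ES array, at 376, 581, 663 and 534, while the others were highest there. The part of fibre content in the Atp1b4 and Atp1b2 values was not tested.

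Atp1b2 moved the opposite way on the ES array. It encodes the beta subunit of fast fibres, first described in glia as an adhesion molecule. Its brighter probe set gave 687 with ES, 1852 with exercise, 1996 in ischemia and 1513 in sham. The ES value lay apart below the other three, which were within 1.32-fold of each other.

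The brighter probe set of Atp1b2 was 2.91-fold lower with ES than in ischemia (log2 ratio -1.54), 2.70-fold lower with ES than with exercise (-1.43) and 2.20-fold lower with ES than in sham (-1.14). Its ratio for ES against ischemia was the 11th lowest of 10092 genes. Exercise against ischemia differed by 1.08-fold, ischemia was 1.32-fold higher than sham, and exercise was 1.22-fold higher than sham. The dimmer probe set gave 26.2 with ES, 44.3 with exercise, 48.0 in ischemia and 25.3 in sham. It was under the floor on the ES and sham arrays, so it gives bounds only: at least 1.59-fold lower with ES than in ischemia, at least 1.47-fold lower with ES than with exercise, and no ratio for ES against sham. All 3 calls of Atp1b2 therefore rest on the brighter probe set: the dimmer one reached 2-fold in none of them. With the mean of both probe sets the log2 ratio was -1.11 for ES against ischemia, -0.99 for ES against exercise and -0.57 for ES against sham. On the dimmer one ES and sham were alike in being under the floor, while on the brighter one sham was 2.20-fold above ES.

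Schwann cell markers were looked at beside Atp1b2. Of 6 Schwann cell markers, 3 were measured, with a summed signal of 1315 with ES, 1155 with exercise, 969 in ischemia and 1264 in sham. Sox10, a defining Schwann cell gene, was under the floor on all 4 arrays. The sum was mostly that of Pmp22 (1062 with ES), while S100b was lowest on the ES array, at 44.2 with ES, 64.1 with exercise, 54.6 in ischemia and 56.2 in sham. Mbp went the other way on its brightest probe set, at 209 with ES, 132 with exercise, 121 in ischemia and 205 in sham. The part of Schwann cells in the Atp1b2 values was not tested. The ratio of the 3′ to the 5′ actin control probe set, a measure that increases with RNA breakdown, was also highest on the ES array, at 5.94 with ES, 4.34 with exercise, 3.81 in ischemia and 4.38 in sham. The same ratio for the GAPDH control had a smaller range, at 1.26 with ES, 1.16 with exercise, 1.04 in ischemia and 1.16 in sham. The part of RNA breakdown in the Atp1b2 and Atp1b4 values was not tested.

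Atp1b1 was the member that differed most between ischemia and sham. It encodes the most widely expressed beta subunit, that of slow oxidative muscle. Its brighter probe set gave 1418 with ES, 1146 with exercise, 743 in ischemia and 1377 in sham, and the other probe set gave 1531, 967, 610 and 1375 on the same arrays. Both probe sets put the arrays in the same order, with ES and sham at the top, exercise between and ischemia at the bottom.

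On the brighter probe set Atp1b1 was 1.85-fold lower in ischemia than in sham (log2 ratio -0.89), 1.91-fold higher with ES than in ischemia (0.93) and 1.54-fold higher with exercise than in ischemia (0.62). None of these reached 2-fold. On the other probe set the same ratios were 2.25-fold lower (-1.17), 2.51-fold higher (1.33) and 1.58-fold higher (0.66), of which the first and second passed. Of all genes, 2.48% had a ratio of ischemia to sham at least as far from 0 as the brighter probe set of Atp1b1, and 4.03% had one as far from 0 for ES against ischemia. ES and sham differed by 1.03-fold on the brighter probe set and 1.11-fold on the other, and exercise was 1.20-fold and 1.42-fold lower than sham.

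Slow-fibre markers were on other levels than Atp1b1 on the treated arrays. Their summed signal (6 of 6 measured, among them Myh7 and Tnnt1, the slow myosin heavy chain and slow troponin T) was 17470 with ES, 54365 with exercise, 8871 in ischemia and 46878 in sham. Both Atp1b1 and this sum were lowest in ischemia. With ES, Atp1b1 was at the level of sham while 5 of the 6 markers were more than 2-fold lower than in sham. Of all genes, 4.84% were past 2-fold in either direction for ES against sham. The median log2 ratio of the 6 markers was -1.58. With exercise all 6 markers had ratios above 0 against sham, with a median of 0.21, and Atp1b1 lay below sham on both probe sets. The part of slow-fibre content in the Atp1b1 values was not tested.

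On their brighter probe sets, the ratios of Atp1b1 and Atp1b2 lay furthest apart for ES against ischemia. Against ischemia, the log2 ratio of Atp1b1 exceeded that of Atp1b2 by 2.47 with ES and by 0.73 with exercise, and with ES set against exercise by 1.74. In ischemia against sham the difference had the other sign, -1.29, with Atp1b1 lower and Atp1b2 higher. ES against sham gave 1.18, nearly all of it from Atp1b2, and exercise against sham -0.56. On the dimmer probe sets the log2 ratios for ES against sham were 0.16 for Atp1b1 and 0.00 for Atp1b2, which was under the floor on both arrays.

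Atp1b3 and Fxyd1 showed no ratio past 2-fold. Atp1b3, a beta subunit found in many tissues and in blood cells, gave 575 with ES, 469 with exercise, 476 in ischemia and 408 in sham. Its largest ratio was 1.41-fold higher with ES than in sham (log2 ratio 0.50). Exercise and ischemia differed by a log2 ratio of -0.02, which was 0.01 after quantile normalization, so it has no direction. Macrophage markers (6 of 6 measured), cells in which Atp1b3 is also expressed, summed to 3100 with ES, 1279 with exercise, 2688 in ischemia and 1262 in sham. Endothelial markers (5 of 6 measured) summed to 2633, 1405, 1168 and 1160 in that order. Both sums were highest on the ES array, as Atp1b3 was. The macrophage sum was mostly that of Lyz2 (2553 with ES), and 4 of the 6 macrophage markers were lower with ES than in ischemia, with a median log2 ratio of -0.10. Their part in the Atp1b3 values was not tested.

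Fxyd1 gave 2218 with ES, 2268 with exercise, 1982 in ischemia and 2300 in sham. Phospholemman lowers the affinity of the pump for sodium, and its phosphorylation during contraction relieves this. The ischemia array was the lowest, 1.16-fold under sham (log2 ratio -0.21), and the other three lay within 1.04-fold of each other. ES and exercise differed by a log2 ratio of -0.03, or 0.00 after quantile normalization. Over the 4 arrays 81.2% of all genes varied at least as much as Fxyd1, while 0.228% did so for Atp1b4, 1.7% for Atp1b2, 9.94% for Atp1b1 and 38.9% for Atp1b3.

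**Figure D2:**
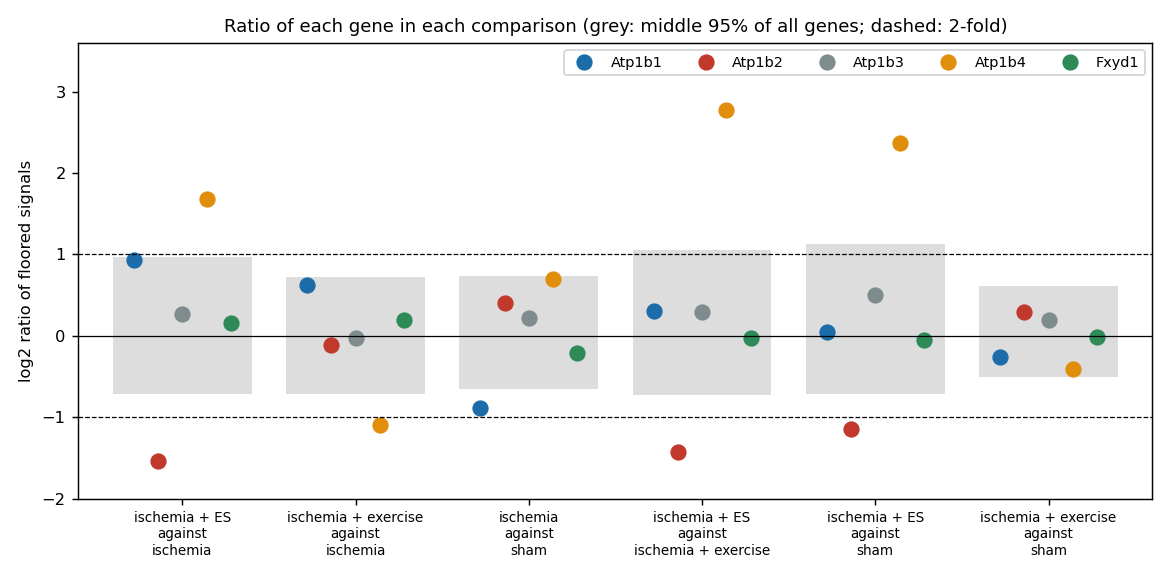
Log2 ratio of floored signals (vertical axis) of the 5 genes, brighter probe set, in the 6 comparisons between 2 arrays (horizontal axis); grey boxes span the middle 95% of the ratios of 10092 genes and dashed lines mark 2-fold. Atp1b4 at 1.68 and Atp1b2 at -1.54 lie on opposite sides of the box for ischemia + ES against ischemia, and all 5 genes lie inside the box for ischemia + exercise against sham.

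By count, 2 of the 5 genes were past 2-fold for ES against ischemia, Atp1b4 higher and Atp1b2 lower, beside 3.07% of the 10092 genes. The same 2 genes, in the same directions, were past it for ES against exercise, beside 4.05% of genes, and for ES against sham, beside 4.84%. For exercise against ischemia, Atp1b4 alone was past it, lower, beside 2.01% of genes. For ischemia against sham the count was 0 of 5, beside 1.64%, and for exercise against sham 0 of 5, beside 0.446%. The comparisons share arrays, and the genes were chosen with these ratios known, so nothing is read from the counts against these shares. The median log2 ratio of the 5 genes was 0.27 for ES against ischemia, -0.02 for exercise against ischemia and 0.22 for ischemia against sham, where the medians of all genes were 0.05, 0.00 and 0.00.

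**Figure D3:**
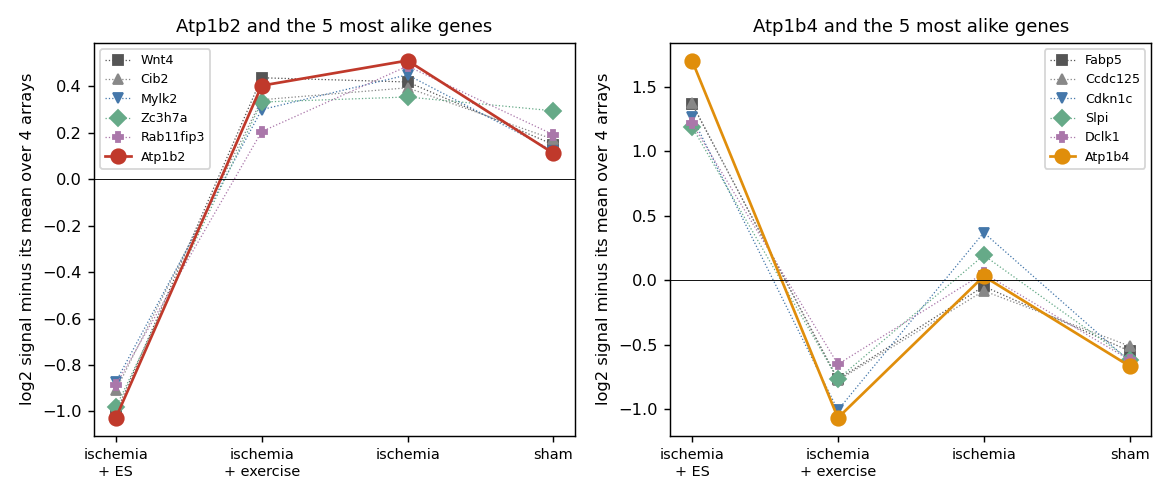
Log2 signal minus its mean over the 4 arrays (vertical axis) on each array (horizontal axis) for Atp1b2 (left) and Atp1b4 (right), drawn as large circles, and for the 5 genes with the smallest root mean square difference from each. Lines join the arrays only to guide the eye; the left group is set apart by a low ischemia + ES array and the right group by a high one.

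Among the 5 genes, Atp1b2 and Atp1b4 spanned 2-fold or more on their brighter probe set, and the most alike patterns were sought for them among 8773 other genes above the floor on all arrays. Likeness was the root mean square difference between log2 signals centred on their mean over the 4 arrays, and 4 arrays are few for such a measure. For Atp1b2 the closest were Wnt4 (0.05), Cib2 (0.09), Mylk2 (0.10), Zc3h7a (0.13) and Rab11fip3 (0.13). Mylk2, the myosin light chain kinase of skeletal muscle, gave 1337 with ES, 3014 with exercise, 3345 in ischemia and 2664 in sham. Wnt4, a secreted signalling protein, gave 81.4, 222, 219 and 182 on the same arrays.

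For Atp1b4 the closest genes were more distant: Fabp5 (0.24), Ccdc125 (0.24), Cdkn1c (0.28), Slpi (0.31) and Dclk1 (0.32). Fabp5, a fatty acid binding protein, gave 1095 with ES, 249 with exercise, 410 in ischemia and 290 in sham. Cdkn1c, an inhibitor of the cell cycle, gave 834, 172, 447 and 224. After quantile or cyclic loess normalization 4 of the 5 closest genes were shared with these for each of Atp1b2 and Atp1b4.

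**Figure D4:**
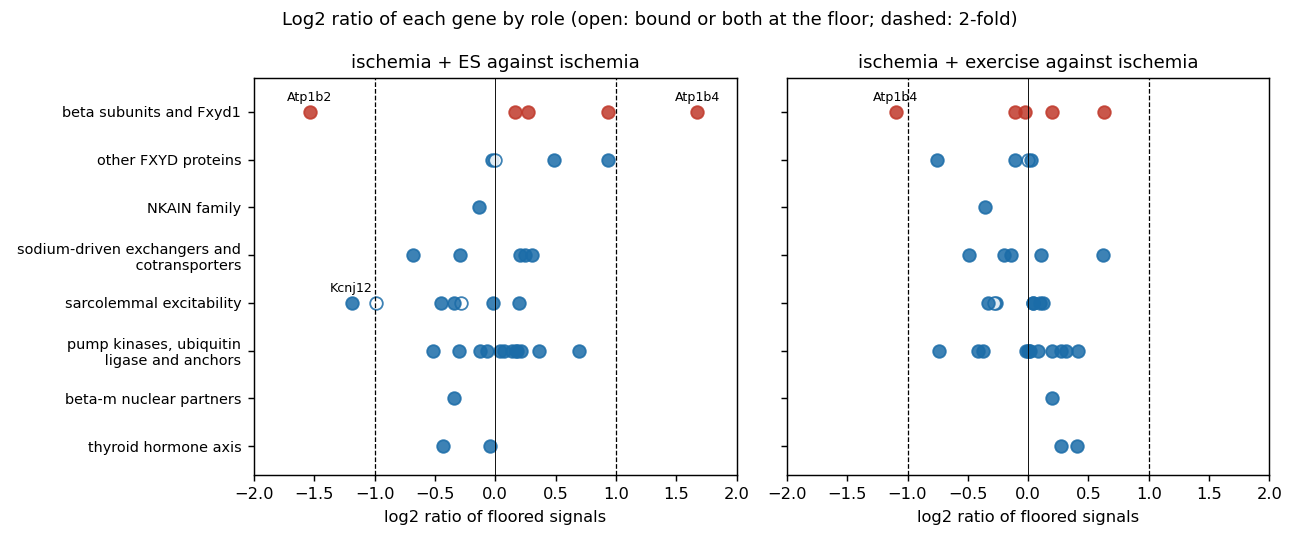
Log2 ratio of floored signals (horizontal axis) for each measured gene of the pump and of the genes around it, grouped by role (rows), with ischemia + ES against ischemia on the left and ischemia + exercise against ischemia on the right; open circles have a bound or lie at the floor on both arrays, and dashed lines mark 2-fold. Outside the top row only Kcnj12 passed 2-fold, on the left at -1.19. The row labelled sodium-driven also holds potassium-chloride cotransporters.

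Other genes around the pump were counted in the same way: genes of ion transport and membrane excitability, pump kinases and anchors, Atp1b4 partners and the thyroid hormone axis. Of 52 such genes in 9 lists, 44 had a probe set of their own and 32 were above the floor on at least 1 array. For ES against ischemia 1 of 32 was past 2-fold, lower, beside 3.07% of all genes; the median log2 ratio of the 32 was -0.02 and that of all genes 0.05. For exercise against ischemia none of the 32 was past 2-fold in either direction, beside 2.01% of all genes, and for ischemia against sham 1 was, higher, beside 1.64%. ES against exercise had 1, lower, beside 4.05%, ES against sham had 2 higher and 1 lower, beside 4.84%, and exercise against sham had 0, beside 0.446%. With so few genes these counts do not set the lists apart from all genes.

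Fxyd1 lies next to Fxyd7 and near Fxyd5 and Fxyd3 in the RefSeq gene table. Of these relatives only Fxyd5 was above the floor on all 4 arrays, and Fxyd1 varied too little for a shared pattern to be judged. Fxyd5, a FXYD protein that affects adhesion of epithelial cells, gave 125 with ES, 82.7 with exercise, 89.3 in ischemia and 56.1 in sham, and was 2.23-fold higher with ES than in sham. Fxyd6 gave 143 with ES, 75.7 with exercise, 74.5 in ischemia and 83.0 in sham, a 1.91-fold higher signal with ES than in ischemia. Both were brightest on the ES array, on which the summed endothelial signal was highest too. Of the 5 measured endothelial markers Vwf was an exception, at 189 with ES, 218 with exercise, 128 in ischemia and 200 in sham. The relation was not tested.

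Fxyd2, the kidney gamma subunit, gave 63.1 with ES, 38.0 with exercise, 64.3 in ischemia and 27.8 in sham. With sham under the floor, it was at least 2.14-fold higher in ischemia than in sham and at least 2.10-fold higher with ES than in sham. Fxyd3 was above the floor in sham alone, at 33.1. Fxyd4, Fxyd7, the testis alpha subunit gene Atp1a4, and the 3 genes of the related proton pump (Atp4a, Atp4b and Atp12a) did not exceed the floor on any array. Neither did Nkain2, Nkain3 or Nkain4, while Nkain1 was measured and stayed within 2-fold in all 6 comparisons.

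Of the 7 measured genes of fibre membrane excitability, Kcnj12 and Clcn1 passed 2-fold, and both were low on the ES array. The count was 1 of 7 for ES against ischemia, beside 3.07% of all genes. It was also 1 for ES against exercise, beside 4.05%, and for ES against sham, beside 4.84%. For ES against ischemia 6 of the 7 ratios were below 0 and 1 was above. Their median log2 ratio was -0.34, where that of all genes was 0.05. Of the 6, Clcn1 and Kcnj2 were bounds and Abcc9 was at -0.02 on its brightest probe set, so no shared fall is read from the signs. Kcnj12, an inward rectifier potassium channel, gave 120 with ES, 227 with exercise, 273 in ischemia and 243 in sham. It was 2.28-fold lower with ES than in ischemia and 2.03-fold lower with ES than in sham. Clcn1, the muscle chloride channel, gave 26.6 with ES, 61.4 with exercise, 59.7 in ischemia and 50.6 in sham. With ES it was under the floor, at least 2.04-fold lower than with exercise and at least 1.98-fold lower than in ischemia. Kcnj11, another potassium channel, gave 786 with ES, 1108 with exercise, 1076 in ischemia and 1069 in sham on its brightest probe set. A dimmer probe set of Kcnj11 was 2.35-fold lower with ES than in sham. Atp1b2 was low on the ES array too. Its relation to these channels was not tested.

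None of the 12 kinases, ubiquitin ligase and anchoring genes of the pump passed 2-fold in any of the 6 comparisons, where 0.446% to 4.84% of all genes did, and nothing particular to these lists is read from that. The kinase gene Sgk1, whose product raises pump activity, had the widest range among them, at 1093 with ES, 639 with exercise, 1065 in ischemia and 909 in sham. Likewise none of the 5 measured ion exchangers and cotransporters passed. Neither did the 2 measured thyroid hormone receptor genes, thyroid hormone being a known inducer of the pump in muscle. Smad7, a reported target of the Atp1b4 and Snw1 pair, gave 59.6 with ES, 86.9 with exercise, 75.6 in ischemia and 86.2 in sham. It was lowest on the array on which Atp1b4 was highest, at 1.46-fold under exercise, short of 2-fold. The relation of Smad7 to Atp1b4 was not tested.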

How the data were processed

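Biotinylated cRNA was made by 3′-primed in vitro transcription from column-purified total RNA, per the labels' protocols. The deposited values are linear intensities of 31099 probe sets on each array, made with MAS5 per the submitters' processing notes. The 2% trimmed mean was 150.1 on each array, so the arrays had been scaled before deposit, and a difference in total mRNA cannot be seen. Gene symbols came from the platform annotation of 2016. Probe sets with several symbols (436) or none (9831) were not named. The gene identifiers of 20764 probe sets with a single symbol were found in the RefSeq table (GRCr8), with 0 differing symbols.

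Groups followed the labels. Intensities were brought to 1 trimmed mean, floored at the 50th percentile and put on the log2 scale; of several probe sets the one with the highest mean stood for its gene. Arrays were compared in 6 pairs by ratio, with no test, SD or p-value, as each group had 1 array. The number of arrays limits the precision. Alternatives were quantile and cyclic loess normalization (limma 3.58.1, R 4.3.3), floors at percentile 30 and 70, 1.5-fold or 3-fold, the mean of a gene's probe sets, and leaving out 504 probe sets open to cross-hybridization. The dimmer probe set of Atp1b1 and Atp1b2 was added after seeing the data. The rest ran in Python 3.11.15, and the ratio calculation was tested on simulated data.

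The members and lists were chosen with earlier results of these data known. Named are all members, list genes past 2-fold and all measured alpha and FXYD genes. Also named are the 5 most alike genes of each member above the floor on all arrays with a span of 2-fold or more. Symbols starting with LOC or RGD were left out of that search. Myh3, Myh8, Myog, Sgk1, Smad7, Nkain genes and proton pump genes were added after their values were seen. So were Kcnj11, Kcnj2, Abcc9, Myh1, Myh4 and the single markers Pmp22, S100b, Mbp, Sox10, Lyz2 and Vwf. Upstream sequences are from RefSeq; entries were found for 4 of the 5 members.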

Additional observations from a re-analysis of the deposited data

How the results depend on the processing

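With 1 array per group no value has a replicate check, and MAS5 signals near the floor are noisy. No paired analysis was possible because each group had 1 array. All log2 ratios of Atp1b4 and of the brighter probe sets kept their sign under quantile and cyclic loess normalization except those of Atp1b3 for exercise against ischemia (0.01 after quantile) and Fxyd1 for ES against exercise (0.00 after quantile), both near 0. The count of sodium pump genes past the threshold moved as follows. At 3-fold it was 1 of 5 for ES against ischemia, against exercise and against sham, in each case Atp1b4, and 0 for exercise against ischemia. At 1.5-fold it was 3 for ES against ischemia (2 as reported), 2 for exercise against ischemia and 2 for ischemia against sham. With the floor at the 70th percentile it was 0 for exercise against ischemia. With the mean of a gene's probe sets, and likewise with the dimmer probe set, it was 1 for ES against exercise, 1 for ES against sham and 1 for ischemia against sham, since Atp1b1 came past 2-fold for ischemia against sham and Atp1b2 fell short for the other two. For ES against ischemia the mean gave 3, with Atp1b1 added, and the dimmer probe sets gave 2, which were Atp1b4 and Atp1b1 in place of Atp1b2. On the dimmer probe set Atp1b2 had log2 ratios of -0.67, -0.56 and 0.00 for ES against ischemia, exercise and sham, the first pair bounds and the last with both arrays under the floor. Over the floors and thresholds, the number of all genes past the threshold ran from 34 to 1465 for ES against ischemia (310 as reported), 54 to 834 for exercise against ischemia (203), 43 to 821 for ischemia against sham (166), 67 to 1521 for ES against exercise (409), 78 to 1689 for ES against sham (488) and 6 to 468 for exercise against sham (45).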
